A study of Mus musculus with 6 samples.

Results

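Constitutive proteasome genes were followed in LPS-induced RAW264.7 cells, a mouse macrophage line, with and without TPPU, an inhibitor of soluble epoxide hydrolase. The members were the rows of the FPKM table (fragments per kilobase of gene scaled to the library's total of fragments) whose symbol begins with Psma, Psmb, Psmc or Psmd and a digit. The immunoproteasome genes Psmb8, Psmb9 and Psmb10 and pseudogene symbols were left out. This rule took 37 of 18019 genes. Of these, 16 encode core particle proteins and 20 are grouped under the regulatory particle, 3 of them chaperones of its assembly. The remaining 1, Psmc3ip, encodes a meiotic recombination factor that is no proteasome subunit. The rule itself uses no measured value, but the members were chosen with earlier results of these data known.

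All 6 libraries came from cells given LPS, a bacterial product that drives macrophages to the inflammatory M1 state. The control group (n = 3) had LPS without TPPU and the other group (n = 3) had LPS with TPPU. Doses, times and separate cultures are not given in the labels, so p-values measure the spread between these libraries, which may be technical. RAW264.7 is a single transformed line, and all labels name the same batch. In such bulk samples fewer cells and less RNA per cell cannot be told apart.

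The proteasome is the protease that degrades proteins tagged with ubiquitin. Its core particle is a barrel of stacked rings, with alpha subunits outside, which gate the entry, and beta subunits inside, of which Psmb5, Psmb6 and Psmb7 carry the chymotrypsin-like, caspase-like and trypsin-like activities. The regulatory particle caps the barrel. Its base holds a ring of ATPases that unfold substrates, and its lid removes ubiquitin. Interferons and other inflammatory signals let macrophages replace the catalytic beta subunits by those of the immunoproteasome, which makes peptides for MHC class I.

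Estimated depth was 17.7 to 22.8 M (mega) fragments per library. Control replicate 3 stood apart from the others, with correlations across genes of 0.958 to 0.977 and a mitochondrial share of 0.371% of FPKM. TPPU replicate 1 had the next lowest share, 0.914%, against 1.46% to 1.85% in the other 4 libraries. All 8 macrophage markers were present, with a summed level of 1572 to 1753 FPKM in control and 1658 to 1744 with TPPU. Of the markers of other cells, the 3 hepatocyte genes Alb, Apoa1 and Ttr summed to 32.1 to 67.3 FPKM in control and 76.4 to 139 with TPPU, with none at 0 in all libraries and no overlap between the groups. Their part in the results was not tested. The T cell markers in the table were at 0 in all controls. The summed fibroblast, T cell, B cell, epithelial, endothelial and chondrocyte markers stayed at or below 4.05 FPKM in every library. For the TPPU samples the labels also cite a column of another table under an sh-LIS1 name. Pafah1b1, which encodes LIS1, was at 11.7, 14.2 and 6.52 FPKM in control and 10.7, 13.5 and 14.2 with TPPU.

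TPPU moved no proteasome gene past the threshold. Of 36 core and regulatory particle genes, 34 passed the filter on low values (at least 1 FPKM in at least 3 libraries) and were tested by limma over 9728 genes. None passed an adjusted p of 0.05, where 0.0% of all genes passed in either direction, and none had an unadjusted p under 0.05, where 4.19% of all genes were higher and 3.7% lower. Adjusted p-values of the members ran from 0.627 to 0.998. In 2 members all TPPU values lay above all control values, 5.88% against 7.48% of all genes, and in 0 members all lay below, against 7.88%. The change in log2(FPKM + 1) was positive for 26 members and negative for 8, with a median of 0.09 against 0.02 over all genes tested, of which 54.4% were positive and 45.6% negative. The 95% interval lay within 0.5 of 0 for 25 of the 34.

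All 14 core genes tested had positive values, with a median of 0.17, and 12 of 20 regulatory particle genes did, with a median of 0.03. These 20 include the 3 assembly chaperones, all positive, with a median of 0.24. Without control replicate 3 the core median was 0.12, with 10 positive and 4 negative, and the regulatory median 0.01, with 10 of each sign. Without that library and TPPU replicate 1, both chosen after the data were seen, the medians were 0.14 and 0.02. Positive values then numbered 11 of 14 and 12 of 20, against 54.5% of all genes. Groups that did not overlap then numbered 11 higher and 2 lower of the 34 members, 32.4% and 5.88%, against 24.8% and 19.3% of all genes. Without control replicate 3 alone they numbered 7 and 1, against 17.0% and 12.4% of all genes. The difference between the particles was not tested.

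**Figure D1:**
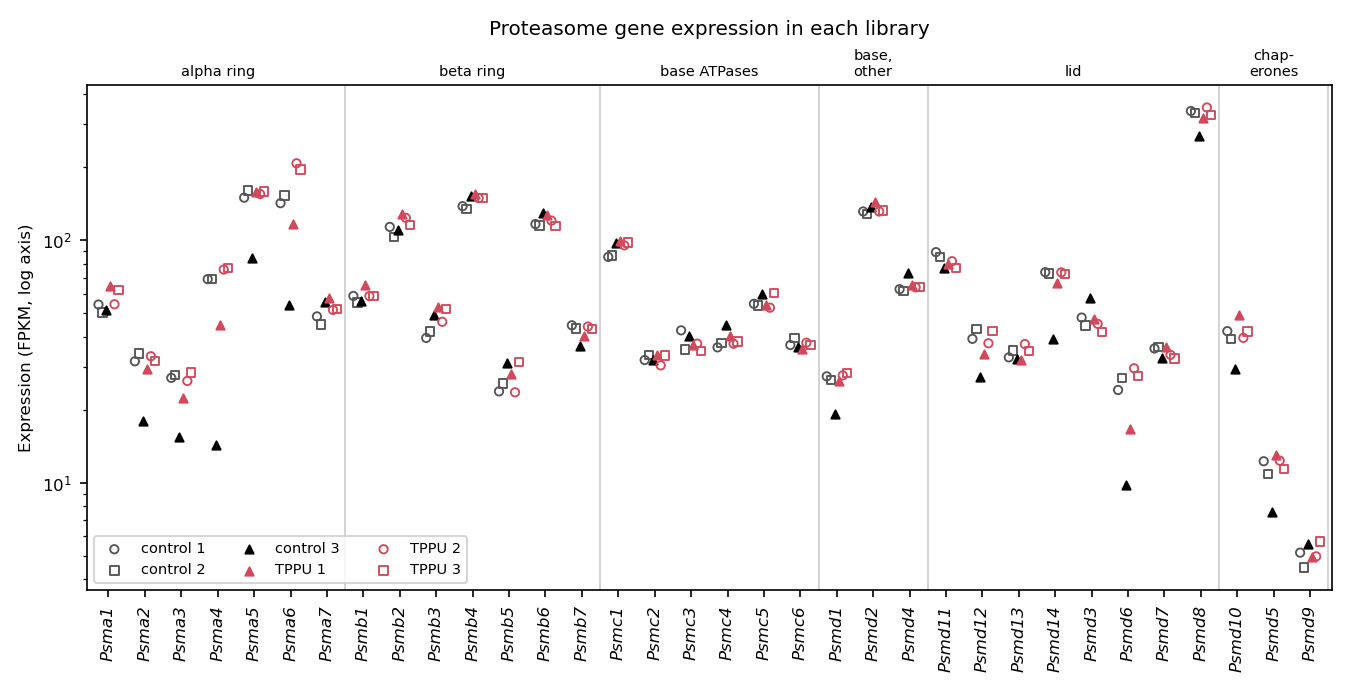
Expression of the 34 proteasome genes tested, by role, in each of the 6 libraries (FPKM, log axis; black and grey are control, red is TPPU, filled triangles are control replicate 3 and TPPU replicate 1). The beta ring and the ATPases overlap closely, while control replicate 3 falls far below the rest in Psma4 (14.2 FPKM), Psma6 (54.0) and Psmd6 (9.74).

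Levels per length were high. The 34 genes ranged from 5.14 FPKM for Psmd9 to 324 for Psmd8 as means over 6 libraries, with a median at the 90.8th percentile of tested genes. Behind Psmd8, which encodes a lid subunit, came Psmb4 at 146, Psma6 at 145 and Psma5 at 144 FPKM. These 3 neighbours differed by less than their spread over libraries. Within the ATPase ring, whose subunits assemble in equal numbers, the highest gene was 2.58 to 3.13 times the lowest in a library. In the alpha ring that ratio was 5.53 to 7.89 and in the beta ring 4.75 to 6.31. The order of the 34 levels was similar between libraries, with Spearman's rho from 0.828 to 0.993 across genes, which share library, gene length and base composition.

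Alpha ring genes gave the widest values. Summed over the 7 genes tested, the ring measured 522, 539 and 293 FPKM in control replicates 1 to 3 and 493, 603 and 605 with TPPU. The lowest library of each group was control replicate 3 and TPPU replicate 1. Psma6, on chromosome 12 (55384222 to 55418454, mm10), measured 142, 153 and 54.0 FPKM in control and 116, 207 and 195 with TPPU. Control replicate 3 lay below all other libraries, and TPPU replicate 1, below the other controls, made the groups overlap. The change of 0.66 (SE 0.39, limma adjusted p = 0.684) was the largest of any member. Without these libraries, a choice made after the values were seen, Psma6 was higher by 0.45 (SE 0.06, limma adjusted p = 0.0469), the 1 member then past the threshold, where 0.298% of all genes were higher and 0.103% lower. That fit has 2 libraries per group.

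Psma4, on chromosome 9 (54950790 to 54958030), varied most between libraries relative to its mean among the 34 genes tested. It measured 69.0, 69.2 and 14.2 FPKM in control and 44.6, 75.6 and 76.8 with TPPU. Its change was 0.62 (SE 0.54, limma adjusted p = 0.773), with a 95% interval from -0.63 to 1.87, and turned to -0.11 without control replicate 3. Psma2, Psma3 and Psma5 were also lowest in control replicate 3, at 17.9, 15.4 and 84.1 FPKM, against 29.3 to 34.0, 22.3 to 28.5 and 149 to 160 in the other 5 libraries. These 3 genes had changes of 0.21, 0.17 and 0.31 with all libraries and of -0.07, -0.1 and 0.02 without control replicate 3.

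Psma1 and Psma7 did not share that drop. Psma1, on chromosome 7, measured 54.2, 50.2 and 51.3 FPKM in control and 64.4, 54.3 and 62.3 with TPPU. Its groups did not overlap, with the lowest TPPU value just above the highest control (change 0.21, SE 0.1, limma adjusted p = 0.627). Psma7 had the smallest change of the ring, 0.12 (SE 0.11), from 48.4, 44.9 and 55.7 FPKM to 57.8, 51.5 and 51.9. Psma8, the testis form of an alpha subunit, lay between 0.021 and 0.5945 FPKM, around the 0.0777 to 0.1002 FPKM that 3 fragments are worth in its transcript, and was not tested.

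No beta ring gene tested was over 0.5 (log2) lower in control replicate 3 than in the other controls. Their summed level was 534, 518 and 563 FPKM in control and 596, 565 and 564 with TPPU, so that the lowest TPPU sum lay just above the highest control. All 7 genes tested had positive values, from 0 for Psmb6 to 0.21 for Psmb3, with a median of 0.1, and all their 95% intervals lay within 0.5 of 0. Psmb2, a structural subunit, measured 113, 103 and 110 FPKM in control and 128, 123 and 115 with TPPU. It was the 1 member of this ring whose groups did not overlap (change 0.17, SE 0.08, limma adjusted p = 0.644). That is 14.3% of the 7 genes tested, against 7.48% of all genes higher without overlap. Psmb3 measured 39.5, 42.0 and 48.9 against 53.0, 46.0 and 52.0 FPKM (0.21, SE 0.11, limma adjusted p = 0.651). Here control replicate 3 lay above the lowest TPPU library. Psmb1 and Psmb4, the remaining non-catalytic subunits, each had a change of 0.1.

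The 3 catalytic subunit genes showed no difference beyond their spread. Psmb5, which carries the activity that proteasome inhibitor drugs mainly block, measured 23.8, 25.6 and 31.1 FPKM in control and 28.0, 23.6 and 31.5 with TPPU. Psmb6 measured 116, 115 and 129 and then 127, 120 and 114 FPKM, and Psmb7 44.5, 43.2 and 36.7 and then 40.1, 44.0 and 43.1. In each of them the groups overlapped across most of their range. The 95% intervals of their changes were -0.28 to 0.36 for Psmb5, -0.2 to 0.2 for Psmb6 and -0.2 to 0.27 for Psmb7. Psmb11, the thymus-specific form of this subunit family, was at 0 in 4 libraries and at most 0.0115 FPKM, under the 0.031 to 0.0399 FPKM of 3 fragments. Processed pseudogenes of Psmb5, Psmb6 and Psmb7 are annotated, and whether reads they share with the genes were split is not known, which leaves these levels uncertain.

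**Figure D2:**
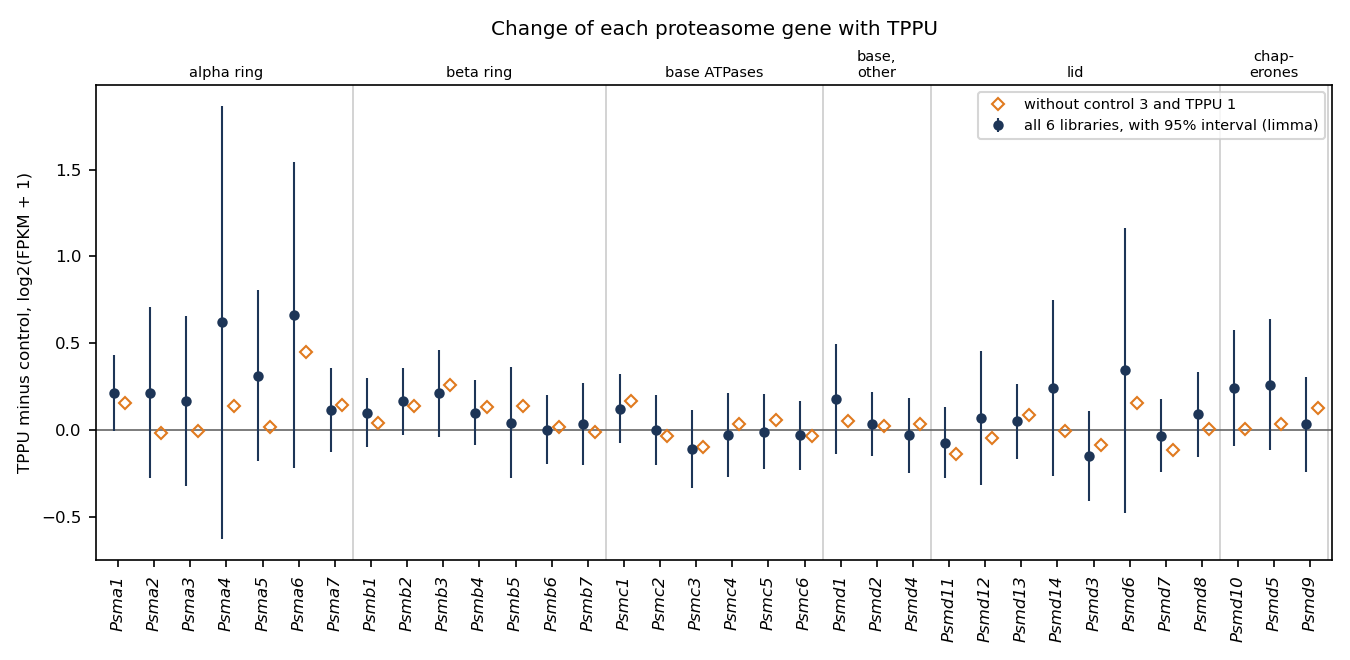
Change of each of the 34 proteasome genes, TPPU minus control on the log2(FPKM + 1) scale, with all 6 libraries (circles, bars are 95% limma intervals) and without control replicate 3 and TPPU replicate 1 (diamonds). Psma4, Psma6 and Psmd6 have the widest intervals, and the beta ring and ATPase intervals lie within 0.5 of 0.

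The ATPase genes of the base had changes close to 0. Their summed level was 287, 286 and 310 FPKM in control and 299, 291 and 301 with TPPU, 294 ± 13.4 and 297 ± 5.74 (SD, n = 3). Changes were positive for 2 and negative for 4 of the 6, with a median of -0.02, and the 95% intervals of all 6 lay within 0.5 of 0. Psmc1 had the highest change, 0.12 (SE 0.09), at 85.2, 86.3 and 96.9 FPKM in control and 99.3, 95.1 and 97.5 with TPPU. Control replicate 3 alone kept its groups from separating. Psmc3 had the lowest, -0.11 (SE 0.1), at 42.4, 35.4 and 40.2 and then 36.8, 37.4 and 34.9 FPKM. Psmc2, Psmc4, Psmc5 and Psmc6 had changes of 0, -0.03, -0.01 and -0.03.

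The 3 other base subunits bind ubiquitin or scaffold the particle. Psmd2, a large scaffold and a docking site for ubiquitin-like domains, measured 131, 128 and 137 FPKM in control and 143, 131 and 132 with TPPU. Psmd4, a receptor for ubiquitin chains, measured 62.7, 61.7 and 73.3 and then 65.3, 63.8 and 64.0. Their groups overlapped, with changes of 0.03 (SE 0.08) and -0.03 (SE 0.09). Psmd1 measured 27.4, 26.5 and 19.2 and then 26.3, 27.7 and 28.4 FPKM, and its change of 0.18 (SE 0.14) was 0.02 without control replicate 3.

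In the lid, 5 genes were positive and 3 negative, with a median of 0.06, or -0.06 without control replicate 3. Psmd14, the metalloprotease that cuts ubiquitin chains off the substrate, measured 73.7, 72.9 and 39.2 FPKM in control and 66.2, 73.5 and 72.3 with TPPU. Without the third control its change of 0.24 (SE 0.22, limma adjusted p = 0.782) was -0.05. Psmd6 measured 24.1, 27.0 and 9.74 and then 16.7, 29.6 and 27.6 FPKM, the highest change in the lid at 0.34 (SE 0.36), or -0.09 without control replicate 3. Psmd3 had the lowest, -0.15 (SE 0.11), at 47.9, 44.4 and 57.4 and then 47.2, 45.1 and 41.8. For Psmd3 control replicate 3 was the highest library. Psmd12 was lowest in control replicate 3 too, at 27.3 against 33.8 to 43.1 FPKM. Psmd7, Psmd8, Psmd11 and Psmd13 had changes between -0.07 and 0.09.

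The 3 assembly chaperones of the regulatory particle hold ATPases until the base is complete. Psmd9 and Psmd5 had the lowest mean levels of the 34 genes tested, while Psmd10 lay among the subunits. Psmd5 measured 12.2, 10.8 and 7.53 FPKM in control and 13.0, 12.3 and 11.3 with TPPU (0.26, SE 0.16, limma adjusted p = 0.704). Psmd10, which encodes gankyrin, measured 42.1, 39.0 and 29.5 and then 49.0, 39.5 and 42.0 (0.24, SE 0.15). The values of both overlapped, and without control replicate 3 the changes were 0.08 and 0.09. Psmd9 measured 5.14, 4.47 and 5.61 and then 4.92, 4.96 and 5.72 FPKM (0.03, SE 0.12). Psmc3ip, the recombination factor, lay between 1.32 and 2.98, with a change of 0.33 (SE 0.18, limma adjusted p = 0.665).

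**Figure D3:**
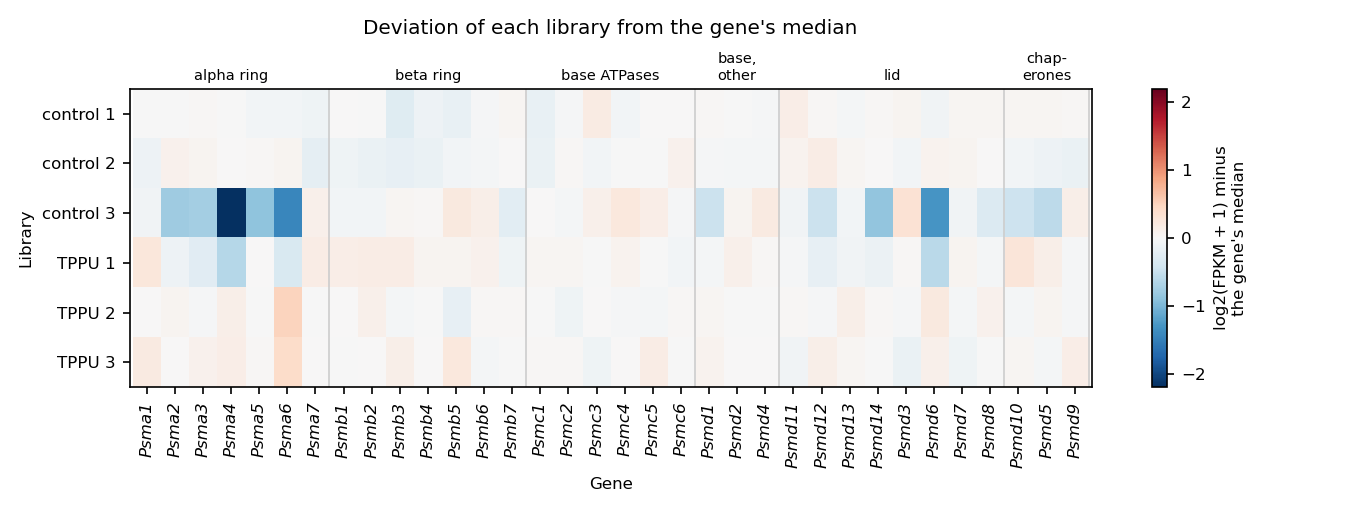
Each library's log2(FPKM + 1) minus the gene's median over the 6 libraries, for the 34 proteasome genes by role (blue is lower, red is higher). The row of control replicate 3 is dark in Psma4, Psma6, Psmd6, Psma5 and Psmd14 and pale across the beta ring and the ATPases, and TPPU replicate 1 is lower in Psma4 and Psmd6.

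The gap between control replicate 3 and the other controls differed between the role groups. Its log2 difference from the mean of control replicates 1 and 2 had a median of -0.84 in the alpha ring. In the assembly chaperones and the lid the median was -0.45 and -0.26. The difference had a median of 0.15 in the beta ring, 0.1 in the ATPases and 0.08 in the other base subunits. It was over 1 lower for Psma4 (-2.2), Psma6 (-1.43) and Psmd6 (-1.3), or 8.82% of the 34 members against 2.44% of all genes. It was over 0.5 lower for 9 members, 26.5% against 11.2%, and over 0.5 higher for 0 members, against 4.05%. Just 10 of the 9728 genes tested had a lower value than Psma4. In linear terms Psma4 stood there at 0.206 of the mean of the other controls, Psma6 at 0.366 and Psmd6 at 0.382. TPPU replicate 1 was over 0.5 lower than the other TPPU libraries for the same 3 genes, at 0.586, 0.579 and 0.583 of their mean, or 8.82% of members against 4.65% of all genes.

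The members low in control replicate 3 had transcripts of lower GC content. Spearman's rho between the difference and GC content was 0.788 across the 34 members and 0.633 across 9522 tested genes, given as a description since genes of a library are not independent. The 9 members over 0.5 lower had a GC content between 39.4% and 49.15%. Members of like content did not all share the drop: Psmc6, at 36.97%, and Psma1, at 43.96%, stood at 0.944 and 0.982 of the other controls. The tested members between them in GC content, Psma2, Psma3, Psmd10 and Psmd14, stood at 0.545, 0.562, 0.727 and 0.535. The TPPU change of the members had a rho of -0.561 with GC content, against -0.277 over all genes, and of 0.113 and -0.045 without control replicate 3 and TPPU replicate 1. With a trend on GC content removed from each library the core median was 0.11 and the regulatory median 0.03. Whether base composition contributes to the values of single members was not tested.

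**Figure D4:**
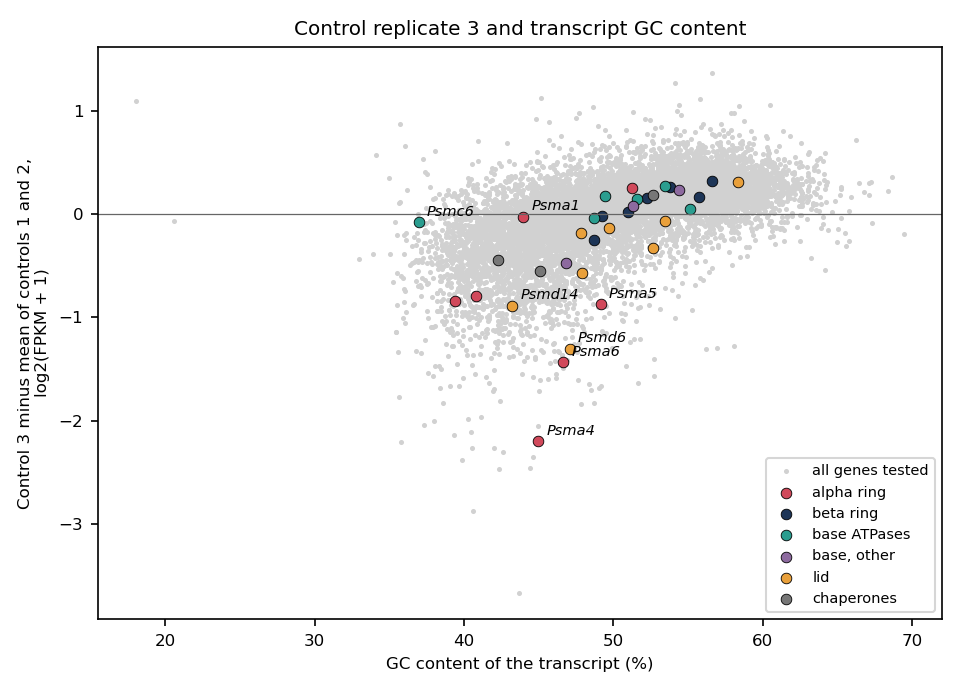
Control replicate 3 minus the mean of control replicates 1 and 2 (log2(FPKM + 1)) against transcript GC content, for the 34 proteasome genes by role and for all tested genes with a GC value in grey. Psma4 lies at -2.2, while Psmc6 and Psma1 lie near 0 at a similar or lower GC content. Psma2, Psma3, Psmd10 and Psmd14, between Psmc6 and Psma1 in GC content, lie below 0.

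Promoter sequence is shown because proteasome genes are known to share regulators. The factor NRF1, encoded by Nfe2l1, binds antioxidant response elements in their promoters when proteasome activity falls, and the factor NF-Y binds CCAAT boxes. RefSeq promoter windows of build GRCm38.p6, from 250 bases before to 50 after the start, were matched for 29 of the 36 genes, in 31 windows. The letters TGACNNNGC, searched on both strands, were found in 5 windows, 16.1%, against 12.4% of all 32851 windows. The letters CCAAT, likewise on both strands, were in 12 windows, 38.7% against 37.4%. No window of a member held both. Both shares are near those of promoters in general. The element is shown for the catalytic genes that hold it, at position -47 in Psmb5 and -9 in Psmb6 counted from the start, and the CCAAT box nearest before the start for the member with the largest change of each core ring and for Psma1, each 5′ to 3′ on the gene's strand with the motif in capitals.
Psmb5 (chr14:54618014-54618062, minus strand): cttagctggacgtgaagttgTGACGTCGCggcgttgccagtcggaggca
Psmb6 (chr11:70525328-70525356, plus strand): cagaggcggactaaagagagTGACGGAGC
Psma6 (chr12:55384173-55384217, plus strand): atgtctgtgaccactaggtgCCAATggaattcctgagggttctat
Psmb3 (chr11:97703371-97703415, plus strand): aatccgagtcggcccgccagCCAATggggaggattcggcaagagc
Psma1 (chr7:114276190-114276234, minus strand): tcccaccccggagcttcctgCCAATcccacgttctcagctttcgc

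The 5 genes with the antioxidant response element had a median change of 0.03 and the 23 tested genes whose windows lack it 0.17. Without control replicate 3 and TPPU replicate 1 these medians were 0.02 and 0.04. For CCAAT the medians were 0.21 in 11 genes with it and 0.05 in 17 without it, and then 0.04 and 0.04.

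Genes around the proteasome had mostly small values too. The subunit genes outside the symbol rule, Adrm1, a ubiquitin receptor, and Sem1, a small lid subunit, had changes of -0.02 (SE 0.1) and 0.12 (SE 0.12). All 5 core assembly chaperones were positive, with a median of 0.2, none passed an adjusted p of 0.05, and 2 did not overlap, beside 54.4% positive and 7.48% higher without overlap among all genes tested. Psmg1, which pairs alpha subunits, measured 23.8, 24.1 and 24.8 FPKM in control and 29.0, 27.1 and 27.9 with TPPU (0.2, SE 0.09, limma adjusted p = 0.627). Pomp, a maturation factor for the beta ring, measured 21.5, 23.0 and 24.9 and then 29.2, 25.7 and 24.9 (0.19, SE 0.1), with 24.89 as the highest control and 24.94 as the lowest TPPU value. Psmg2 and Psmg3 had changes of 0.12 and 0.31.

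Psme2, a subunit of the interferon-inducible activator that opens the core, was the clearest of 6 activator and inhibitor genes. It measured 68.2, 67.7 and 70.4 FPKM in control and 91.2, 90.5 and 82.9 with TPPU (0.35, SE 0.08, limma adjusted p = 0.397), so that all TPPU values lay above all control values, control replicate 3 included. Its partner Psme1 overlapped, at 47.1, 45.0 and 34.3 and then 51.8, 44.1 and 48.4. Psme2b, a near-identical copy of Psme2 with which reads may be shared, measured 55.0, 54.1 and 61.9 and then 60.7, 53.9 and 57.2. The list's median was 0.1, with 5 positive and 1 negative, and 0 passed the threshold. Psme2 alone did not overlap, 16.7% of the list against 7.48% of all genes higher without overlap.

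The immunoproteasome subunits, which replace Psmb5, Psmb6 and Psmb7 in the core, had changes of 0.13 for Psmb8, 0.16 for Psmb9 and 0.01 for Psmb10, and 0 of 3 passed. The ratio of Psmb8 to Psmb5 in FPKM was 0.659, 0.608 and 0.631 in control and 0.673, 0.763 and 0.603 with TPPU. For Psmb9 to Psmb6 it was 0.0482 ± 0.0086 and 0.0545 ± 0.0031, and for Psmb10 to Psmb7 0.387 ± 0.0886 and 0.378 ± 0.0665 (SD, n = 3). The groups overlapped in all 3 ratios, which were not tested.

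Among 10 associated factors, 7 had positive and 3 negative values, with a median of 0.05 and 0 past the threshold. Zfand2a, a proteasome-associated stress protein, was the only factor of the list whose TPPU values all lay below control. It measured 54.6, 52.1 and 55.0 and then 38.5, 35.3 and 40.3 FPKM (-0.49, SE 0.09, limma adjusted p = 0.273). Of all genes tested, 7.88% were lower without overlap. Ube3a, a ubiquitin ligase, was higher without overlap, at 0.857 to 1.09 and then 1.1 to 1.57 FPKM. The highest control was at 1.0881 and the lowest TPPU value at 1.0995 FPKM. Its change was 0.23 (SE 0.15, limma adjusted p = 0.706). The mean level of Ube3a, 1.14 FPKM, was near the filter on low values, and 7.48% of all genes were higher without overlap. The deubiquitinases Usp14 and Uchl5 and the ligase Ube3c had changes of 0.29, 0.14 and 0.06.

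Of 7 regulators of proteasome genes, 4 were positive and 3 negative, with a median of 0.02. Nfe2l1 measured 83.6, 86.9 and 109 FPKM in control and 99.6, 85.8 and 91.3 with TPPU (-0.01, SE 0.12), and Nfe2l2, which encodes NRF2, had a change of -0.22 (SE 0.12) and Ddi2, the protease that activates NRF1, one of 0.02. None of these groups separated. For 14 genes of ubiquitin supply and shuttling the median was -0.02, with 5 positive, and 0 passed. Ubb, a polyubiquitin gene, overlapped between the groups, at 366, 299 and 334 and then 316, 312 and 297 FPKM (-0.11, SE 0.09).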

How the data were processed

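The authors deposited 1 table of FPKM for 18019 gene symbols in 6 poly(A) RNA libraries, made strand-specific with dUTP per the labels' protocols. That the values are FPKM was read from the table itself. Per the submitters' processing notes the build was mm10, while aligner, counter and annotation are not given in the sources. Library names in the sample descriptions gave each column its sample. Depth was estimated as the number of fragments between 10 and 30 M at which low values of genes with 1 annotated transcript came closest to whole (within 0.1 for at least 92.1% of values, 20.0% by chance).

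The 9728 genes reaching 1 FPKM in 3 or more libraries were compared as log2(FPKM + 1), which understates changes of low genes, in limma 3.58.1 (R 4.3.3) with a trend and group as the sole term, two-sided, with Benjamini-Hochberg adjustment. The script was tested on simulated data. The longest coding transcript in GENCODE M21 (the longest of any kind where none is coding) gave GC content and length. Members and lists were chosen with earlier results of these data known. All members are accounted for. Library values were given for the catalytic subunits, Psmd2, Psmd4, Psmd14, the highest and lowest change of each role group and genes whose groups did not overlap, and from related lists the first 3 tested and those not overlapping were named. The results of 2 genes that this rule names are not reported here. Other members given by library were chosen after their values were seen. Alternatives covered pseudocounts, filters, scaling, limma settings, GC and length trends, the replicate block and each library left out. Python 3.11.15, pandas 2.3.3, scipy 1.17.1 and matplotlib 3.10.9 were used.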

Additional observations from a re-analysis of the deposited data

How the results depend on the processing

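Over 19 alternatives, 611 of 664 values of the 35 tested genes of the symbol rule kept their direction and side of the threshold. Another 52 changed sign, none to a size above 0.12, and 1, Psma6 without control replicate 3 and TPPU replicate 1, passed the threshold. Under all other alternatives the lowest limma adjusted p of a member was 0.094, with library quality weights. Genes past the threshold over the whole table numbered 0 and became 169 with quality weights, 8 with the GC trend removed, 39 without control replicate 3 and TPPU replicate 1, and 0 to 6 with 1 library left out, the 6 without TPPU replicate 1. The core median of 0.17 was 0.102 with quality weights, 0.0990 with the length trend removed, 0.114 with the GC trend removed and 0.123 to 0.171 with 1 library left out, the lowest without control replicate 3. The regulatory median of 0.03 was -0.00325 to 0.0476 with 1 left out, the lowest without TPPU replicate 3. A replicate block on the shared numbers left 0 genes past the threshold and the medians at 0.17 and 0.03. Same-numbered libraries deviated together at -0.301, 0.154 and -0.399 across genes. These are deviations from means of 3 libraries, so they cannot decide whether the numbers pair the libraries. No library correlated best with its own number, and the highest value, 0.506, was between control replicate 3 and TPPU replicate 1. Signs changed with quality weights for Psma3 (-0.0244), Psmb7 (-0.0316), Psmc2 (-0.0163), Psmc4 (0.0541), Psmc5 (0.0123), Psmd4 (0.0269) and Psmd12 (-0.0404). They changed with the length trend removed for Psmb5 (-0.0445), Psmb6 (-0.0868), Psmb7 (-0.0465) and Psmc2 (-0.0499), with quantile normalization for Psmb6 (-0.00341) and Psmc2 (-0.00326) and with the GC trend removed for Psmc2 (-0.0250). Without control replicate 3 and TPPU replicate 1 they changed for Psma2 (-0.0180), Psma3 (-0.00347), Psmb7 (-0.0109), Psmc2 (-0.0361), Psmc4 (0.0359), Psmc5 (0.0603), Psmd4 (0.0374), Psmd12 (-0.0443) and Psmd14 (-0.00711). There Psmd7 was at -0.118 and Psmd9 at 0.128, with their signs kept. With 1 library left out, values that crossed 0 ranged from -0.0652 to 0.380 for Psma2, -0.0967 to 0.309 for Psma3, -0.114 to 0.987 for Psma4, -0.0517 to 0.151 for Psmb5, -0.0338 to 0.0563 for Psmb6, -0.0488 to 0.0875 for Psmb7, -0.0241 to 0.0459 for Psmc2, -0.0883 to 0.0635 for Psmc4, -0.0703 to 0.0384 for Psmc5, -0.0566 to 0.00737 for Psmc6, -0.120 to 0.200 for Psmd12, -0.00196 to 0.106 for Psmd13, -0.0530 to 0.394 for Psmd14, -0.00578 to 0.0612 for Psmd2, -0.0742 to 0.0480 for Psmd4, -0.0897 to 0.601 for Psmd6, -0.0757 to 0.00159 for Psmd7, -0.0204 to 0.151 for Psmd8 and -0.0408 to 0.0956 for Psmd9. The cause was not tested. Depth limits only Psmb11 and Psma8. Psmb11 was under the value of 3 fragments, and Psma8 was under it in control replicates 1 and 3 and above it in the other libraries. With 3 libraries per group, single changes had an SE of 0.08 to 0.54.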

Other observations

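Rps27a, which encodes a ubiquitin fused to a ribosomal protein and has many processed pseudogenes, was chosen after its values were seen. It measured 187, 204 and 157 FPKM in control and 151, 427 and 441 with TPPU, a change of 0.75 (SE 0.37, limma adjusted p = 0.637). TPPU replicate 1 lay below all controls while TPPU replicates 2 and 3 lay above them. Without control replicate 3 and TPPU replicate 1, a choice made after the values were seen, the change was 1.15 (SE 0.06, limma adjusted p = 0.00154). That fit has 2 libraries per group and leaves out the TPPU library that lay below all controls. This adjusted p was the lowest of all genes in that fit, where 0.298% of all genes passed as higher and 0.103% as lower.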
